A study of Homo sapiens with 6 samples.

Results

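The genes described here are 10 genes of transforming growth factor beta (TGF-beta) signalling: the ligand genes TGFB1, TGFB2, TGFB3 and INHBA, the receptor genes TGFBR1, TGFBR2 and TGFBR3, the transducer SMAD3, and the inhibitors SKIL and BAMBI. They were chosen by gene symbol from a table of 20442 genes, and each had 1 row there. RNA sequencing was performed on HK-2 cells (human proximal tubule epithelium, kept as an immortalized line) that had received a lentivirus to overexpress HNRNPF (3 libraries labelled overexpression) or a control virus, which the sample labels call a control plasmid (3 libraries labelled control). All cells had been cultured for 72 h with 30 mM glucose or with 30 mM mannitol as the osmotic control, and the labels do not say which medium each library had. The paper speaks of biological replicates and of parallel wells for each group. Nothing in the labels ties the 3 libraries of a group to separate cultures. What p-values rest on here is thus the variation among these libraries, possibly technical.

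TGF-beta ligands are secreted in a latent form, bound to their own propeptide and often to a binding protein of the matrix, and act once released. The active dimer binds the type II receptor TGFBR2, which recruits and activates the type I receptor TGFBR1. TGFBR1 then phosphorylates SMAD2 and SMAD3, and these enter the nucleus with SMAD4 and change transcription. The pathway also induces its own inhibitors, and in the kidney tubule it is best known for its part in fibrosis and in the loss of epithelial features.

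HNRNPF, the gene that was to be overexpressed, went against the labels. It had 322.83, 349.84 and 320.8 FPKM (fragments scaled to transcript length and to the mapped fragments of the library) in the overexpression-labelled libraries, against 555.18, 563.36 and 588.68 FPKM in the control-labelled ones (log2 fold change -0.78, adjusted p = 1.07e-04 by limma). The study's methods name the viral insert as hnRNP-F. They give the same gene ID for it in HK-2 cells and in a mouse podocyte line, and this ID differs from 3185, that of HNRNPF here. Whether this value counts transcript from the virus was not tested. In a value per gene, such transcript could not be told apart from that of the endogenous locus. Whether labels were exchanged was not tested. All directions below are those of the libraries as labelled, and each would turn if the labels were exchanged. Between 12396 and 12462 genes reached 1 FPKM in a library. Across genes on the log2 scale, Pearson's r was 0.993 to 0.994 between libraries of a group and 0.990 to 0.992 between libraries of different groups. Of 18 markers of kidney tubule epithelium, 12 had a mean of at least 1 FPKM, among them PAX8, a transcription factor of the renal epithelium. LRP2, which encodes the endocytic receptor megalin of the proximal tubule, was listed at 0 in every library, and CDH1, the epithelial cadherin, reached at most 0.07 FPKM. The other markers of this list with a mean under 1 FPKM were CUBN, SLC34A1, AQP1 and ANPEP.

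At an adjusted p under 0.05, 2 of the 10 genes rose in the overexpression-labelled libraries, BAMBI and TGFB1, and 1 fell, TGFB2. The other 7 did not pass. The test was limma on log2(FPKM + 0.1), two-sided, with Benjamini-Hochberg adjustment over the 12461 genes with a mean of at least 1 FPKM, and all 10 genes were among them. Over all genes tested, 24.4% passed, 11.3% upward and 13.1% downward, so that 3 of 10 is near the share of any genes. The median log2 fold change was -0.04 over the 10 genes and -0.01 over all genes. By limma, 0 members passed both the adjusted p and a 2-fold change, and 0 did with an unadjusted p under 0.05 in its place. Over all genes, 0.514% rose and 0.594% fell by that rule. At any fold, 6 members had an unadjusted p under 0.05, as did 39.2% of all genes tested. The groups did not overlap in 6 members, with overexpression higher in 4 and lower in 2, against 42.1% of all genes tested (19.6% higher and 22.5% lower).

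**Figure D1:**
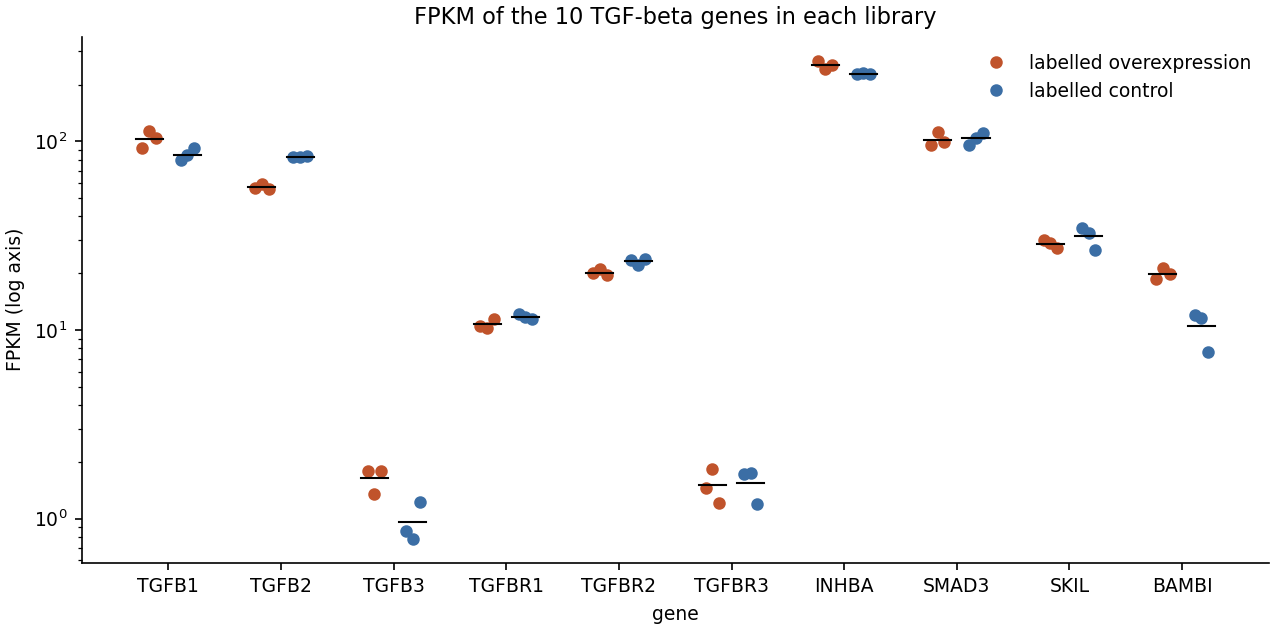
FPKM of the 10 genes (log axis) in each of the 3 libraries labelled overexpression (orange) and the 3 labelled control (blue); points are libraries and black lines are group means. TGFB2 and BAMBI show a wide gap between the groups in opposite directions, with BAMBI at 18.61 to 21.43 FPKM in the overexpression-labelled libraries and at 7.66 to 12.03 in the control-labelled ones.

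The levels spanned more than 100-fold. Since FPKM is scaled by transcript length, levels of different genes can be set side by side. In the overexpression-labelled libraries the order of mean FPKM was INHBA (255), TGFB1 (103), SMAD3 (102), TGFB2 (57.2), SKIL (28.7), TGFBR2 (20.2), BAMBI (19.9), TGFBR1 (10.7), TGFB3 (1.64) and TGFBR3 (1.50). The ranges over 3 libraries overlapped between TGFB1 and SMAD3, between TGFBR2 and BAMBI, and between TGFB3 and TGFBR3, so these neighbours in the order were not separated. In the control-labelled libraries the order was INHBA (228), SMAD3 (104), TGFB1 (85.2), TGFB2 (83.1), SKIL (31.5), TGFBR2 (23.1), TGFBR1 (11.8), BAMBI (10.4), TGFBR3 (1.55) and TGFB3 (0.957). There, TGFB1 overlapped TGFB2, TGFBR1 overlapped BAMBI, and TGFBR3 overlapped TGFB3. BAMBI stood with the type II receptor gene in the overexpression-labelled libraries and with the type I receptor gene in the control-labelled ones.

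**Figure D2:**
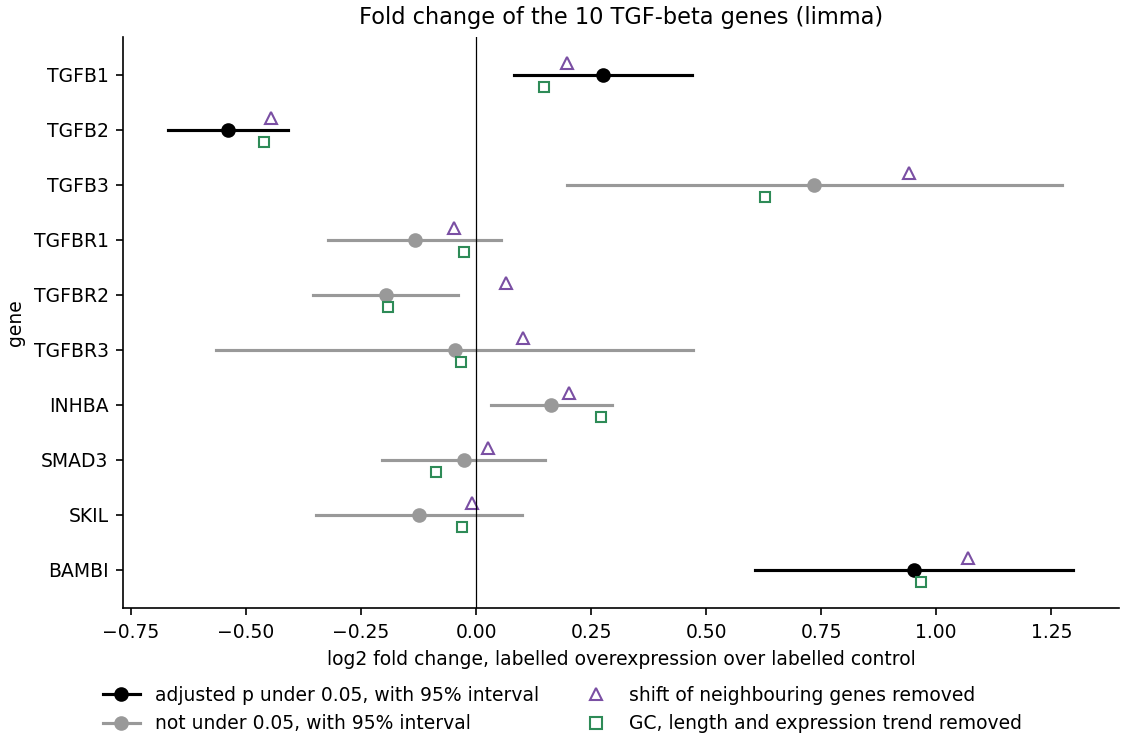
Log2 fold change of each gene, labelled overexpression over labelled control, with its 95% interval from limma (filled circles, black where the adjusted p was under 0.05, grey otherwise). Open triangles show the value after removal of the shift of neighbouring genes and open squares the value after removal of a trend on GC content, length and expression; TGFB2 stayed between -0.57 and -0.44 and BAMBI between 0.75 and 1.07 over all alternatives run.

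The ligand genes TGFB1 and TGFB2 moved in opposite directions. TGFB2 (gene ID 7042, GRCh38.p14 chromosome 1, 218345336 to 218444619) encodes the TGF-beta 2 ligand, which depends on betaglycan for strong receptor binding. It had 56.49, 59.5 and 55.66 FPKM in the overexpression-labelled libraries, against 82.93, 82.71 and 83.76 FPKM in the control-labelled ones. The groups lay far apart, and the control libraries were within about 1 FPKM of each other. TGFB2 fell 1.45-fold (means 57.2 ± 2.02 and 83.1 ± 0.554 FPKM, SD, n = 3 each; a log2 fold change of -0.54, SE 0.058, 95% interval -0.67 to -0.41, adjusted p = 4.83e-04 by limma). Its spread on the log2 scale, 0.036, was smaller than that of all but 3.03% of tested genes, and its change was larger than that of 93.0% of them. TGFB2 passed the threshold in all 18 alternatives.

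TGFB1 (gene ID 7040, chromosome 19, 41330323 to 41353922), the ligand most often tied to renal fibrosis, had 92.48, 113.88 and 103.87 FPKM in the overexpression-labelled libraries, against 79.32, 84.26 and 91.98 FPKM in the control-labelled ones. The lowest of the first group, 92.48, was only just above the highest control library, 91.98. TGFB1 rose 1.21-fold (means 103 ± 10.7 and 85.2 ± 6.38 FPKM, SD, n = 3 each; a log2 fold change of 0.28, SE 0.087, adjusted p = 0.0435 by limma). This call was not stable: it was lost without overexpression replicate 2 (adjusted p = 0.136), overexpression replicate 3 (0.114), control replicate 1 (0.132) or control replicate 2 (0.129). It was also lost with no filter (0.186), TPM scaling (0.0543), limma without trend (0.0935), after removal of the neighbour shift (0.0845), and after removal of the trend on GC content, length and expression (0.0805), where the log2 fold change was 0.15.

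TGFB3 (gene ID 7043, chromosome 14, 75958097 to 75983011), which encodes the third TGF-beta ligand, was far less abundant. It had 1.79, 1.35 and 1.79 FPKM in the overexpression-labelled libraries, against 0.86, 0.78 and 1.23 FPKM in the control-labelled ones. Every library labelled overexpression was above every control library, by a narrow margin at 1.35 against 1.23. The difference fell just short of the threshold (means 1.64 ± 0.254 and 0.957 ± 0.240 FPKM, SD, n = 3 each; a log2 fold change of 0.73, SE 0.241, 95% interval 0.20 to 1.27, adjusted p = 0.0506 by limma). It passed without control replicate 3 (log2 fold change 0.91, adjusted p = 0.0222) and under 6 other alternatives, with an adjusted p of 0.0222 to 0.163 over all 17 that could be run. The control mean lay under 1 FPKM, so TGFB3 entered the test through its level in the overexpression-labelled libraries.

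Within each library, the makeup of the ligand transcripts differed between the groups. TGFB1 took 61.3%, 65.2% and 64.4% of the summed FPKM of TGFB1, TGFB2 and TGFB3 in the overexpression-labelled libraries, against 48.6%, 50.2% and 52.0% in the control-labelled ones. TGFB2 took 37.5%, 34.1% and 34.5% in the overexpression-labelled libraries, against 50.8%, 49.3% and 47.3% in the control-labelled ones. TGFB3 took 0.773% to 1.19% in the overexpression-labelled libraries, against 0.465% to 0.695% in the control-labelled ones. The ratio of TGFB1 to TGFB2 was 1.64, 1.91 and 1.87 in the overexpression-labelled libraries and 0.957, 1.02 and 1.10 in the control-labelled ones. A ratio within a library does not depend on the scaling of that library, but it can depend on GC content, for which FPKM is not corrected. Transcript GC content was 63.6% for TGFB1 and 42.2% for TGFB2. With the trend on GC content, length and expression removed, the log2 fold changes were 0.15 for TGFB1 and -0.46 for TGFB2. The summed FPKM overlapped, at 162 ± 12.0 in the overexpression-labelled libraries and 169 ± 7.05 in the control-labelled ones (SD, n = 3 each). The shares follow from the values of the single genes above and were not tested.

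**Figure D3:**
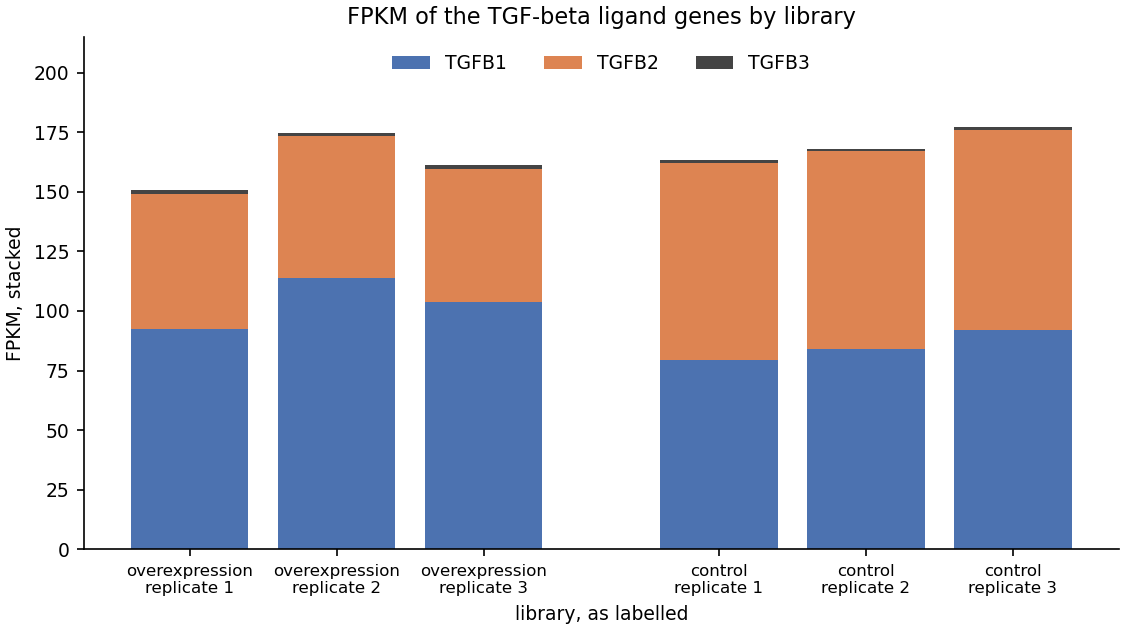
Stacked FPKM of TGFB1, TGFB2 and TGFB3 in each library, the 3 labelled overexpression at the left and the 3 labelled control at the right. The height of the columns overlapped between the groups, while TGFB1 took 61.3% to 65.2% of it in the overexpression-labelled libraries and 48.6% to 52.0% in the control-labelled ones.

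The upstream regions of these ligand genes and of BAMBI are shown because these genes had the largest fold changes of the 10 or, for TGFB1 and TGFB2, moved in opposite directions. Each run holds the 250 bases before a transcription start of RefSeq (GRCh38.p14), read 5′ to 3′ on the strand of the gene. Capitals mark matches to 5 motifs. The TATA box was searched as TATAAA on the coding strand, and the others on both strands. The core of the cAMP response element was searched as TGACGT. The E-box was searched as CACGTG. The GC box, bound by SP1, was searched as GGGCGG. The CAGA box, bound by SMAD3 and SMAD4, was searched as CAGAC.
TGFB1 (chr19:41353923-41354172, minus strand): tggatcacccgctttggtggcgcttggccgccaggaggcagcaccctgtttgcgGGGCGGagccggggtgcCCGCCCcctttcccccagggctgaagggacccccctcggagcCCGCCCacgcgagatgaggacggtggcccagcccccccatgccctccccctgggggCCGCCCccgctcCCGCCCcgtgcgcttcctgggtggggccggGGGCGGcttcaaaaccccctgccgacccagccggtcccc
TGFB2 (chr1:218345086-218345335, plus strand): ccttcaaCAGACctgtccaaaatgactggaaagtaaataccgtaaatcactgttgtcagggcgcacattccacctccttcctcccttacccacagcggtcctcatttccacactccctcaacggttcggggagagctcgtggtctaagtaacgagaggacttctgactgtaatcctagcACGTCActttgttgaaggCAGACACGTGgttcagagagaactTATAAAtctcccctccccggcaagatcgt
TGFB3 (chr14:75981996-75982245, minus strand): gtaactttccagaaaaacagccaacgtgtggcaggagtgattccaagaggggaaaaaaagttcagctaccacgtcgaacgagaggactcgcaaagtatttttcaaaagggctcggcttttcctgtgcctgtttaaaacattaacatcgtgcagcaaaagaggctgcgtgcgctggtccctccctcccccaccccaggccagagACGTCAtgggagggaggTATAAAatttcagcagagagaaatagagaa
BAMBI (chr10:28677271-28677520, plus strand): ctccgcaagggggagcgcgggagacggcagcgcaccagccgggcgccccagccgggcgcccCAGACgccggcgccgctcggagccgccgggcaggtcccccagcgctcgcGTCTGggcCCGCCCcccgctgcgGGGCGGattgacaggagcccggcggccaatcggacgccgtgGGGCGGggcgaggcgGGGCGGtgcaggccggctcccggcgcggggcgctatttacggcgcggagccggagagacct
The TGFB2 window and the TGFB3 window shown both held a TATA box, 29 and 30 bases before the start, and a cAMP response element core, 71 and 47 bases before it. TGFB3 has 2 starts in RefSeq, and the one with the TATA box is shown, so that match was fixed by the choice. The window of the other start held 0 TATA boxes, 0 cAMP response element cores, 1 E-box and 2 CAGA boxes. The TGFB2 window also held an E-box 49 bases before the start, which overlaps a match to the CAGA box by 1 base. The TGFB1 window held none of these and 6 GC boxes, and that of BAMBI 4 GC boxes and 2 CAGA boxes. GC content was 76.8% for TGFB1, 50.4% for TGFB2, 49.2% for TGFB3 and 81.2% for BAMBI. Among all 35116 windows of the same length, 6.80% held the TATA box, 7.10% the cAMP response element core, 6.34% the E-box, 42.6% the GC box and 38.0% the CAGA box. The 10 genes matched 23 windows, and a TATA box lay in a window of 3 of the genes, TGFB2, TGFB3 and INHBA. The INHBA match began only 11 bases before the start. Genes had up to 8 windows, so this count over genes is not on the scale of the shares of single windows above. These matches describe the letters only, and no binding was measured.

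INHBA (gene ID 3624, chromosome 7, 41685114 to 41705406) encodes the beta A subunit of activin A, a ligand that also acts through SMAD2 and SMAD3. It was the most abundant of the 10 genes in every library and above 95.2% of tested genes. It had 268.23, 242.23 and 255.95 FPKM in the overexpression-labelled libraries, against 227.31, 229.47 and 226.65 FPKM in the control-labelled ones. The groups did not overlap, and the control libraries were close together. The difference did not pass (means 255 and 228 FPKM, n = 3 each; a log2 fold change of 0.16, SE 0.059, 95% interval 0.03 to 0.30, adjusted p = 0.0685 by limma). It passed with quantile normalization (adjusted p = 0.0185), with TPM scaling (0.0300), after removal of the neighbour shift (0.0409) and after removal of the trend on GC content, length and expression (0.00451), out of 18 alternatives with an adjusted p of 0.00451 to 0.211.

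None of the receptor genes passed the test, while at an unadjusted p under 0.05 TGFBR2 alone did. TGFBR2 (gene ID 7048, chromosome 3, 30606356 to 30694142), the type II receptor that binds the ligand, had 19.98, 21 and 19.54 FPKM in the overexpression-labelled libraries, against 23.41, 22.22 and 23.76 FPKM in the control-labelled ones. All of the first group lay below all of the control group. The log2 fold change was -0.20 (95% interval -0.35 to -0.04, adjusted p = 0.0684 by limma). It passed after removal of the trend on GC content, length and expression (adjusted p = 0.0253), and with the neighbour shift removed it was 0.07 (adjusted p = 0.524).

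TGFBR1 (gene ID 7046, chromosome 9, 99103647 to 99154192), the type I receptor kinase, had 10.46, 10.31 and 11.44 FPKM in the overexpression-labelled libraries, against 12.18, 11.7 and 11.44 FPKM in the control-labelled ones. The groups met at 11.44 FPKM. The log2 fold change was -0.13 (95% interval -0.32 to 0.05, adjusted p = 0.269 by limma). TGFBR3 (gene ID 7049, chromosome 1, 91680343 to 91906002), betaglycan, the accessory receptor that presents TGF-beta 2, had 1.46, 1.83 and 1.21 FPKM in the overexpression-labelled libraries, against 1.73, 1.74 and 1.19 FPKM in the control-labelled ones. The groups were intermixed, and the interval of the difference was wide (log2 fold change -0.05, 95% interval -0.56 to 0.47, adjusted p = 0.902 by limma).

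TGFBR1, TGFBR2 and TGFBR3 took like shares of the summed receptor FPKM in both groups. TGFBR2 took 62.2% ± 1.38 in the overexpression-labelled libraries and 63.4% ± 1.61 in the control-labelled ones. TGFBR1 took 33.1% ± 2.24 in the overexpression-labelled libraries and 32.3% ± 0.748 in the control-labelled ones (SD, n = 3 each). The sum itself did not overlap between groups, at 31.9, 33.1 and 32.2 FPKM in the overexpression-labelled libraries and 37.3, 35.7 and 36.4 FPKM in the control-labelled ones. Neither the shares nor the sum were tested.

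SMAD3 (gene ID 4088, chromosome 15, 67065602 to 67195169), the transducer that binds DNA, had 95.39, 112.01 and 98.97 FPKM in the overexpression-labelled libraries, against 96.08, 104.76 and 111.12 FPKM in the control-labelled ones. The groups overlapped almost wholly. The log2 fold change was -0.03 (95% interval -0.20 to 0.15, adjusted p = 0.831 by limma).

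The inhibitors SKIL and BAMBI differed from each other. BAMBI (gene ID 25805, chromosome 10, 28677521 to 28682932) encodes a receptor that resembles TGFBR1 outside the cell and lacks the kinase, so that it blocks signalling. It had 18.61, 21.43 and 19.74 FPKM in the overexpression-labelled libraries, against 12.03, 11.63 and 7.66 FPKM in the control-labelled ones. The groups did not overlap, and control replicate 3 was the lowest of all. BAMBI rose 1.93-fold (means 19.9 ± 1.42 and 10.4 ± 2.42 FPKM, SD, n = 3 each; a log2 fold change of 0.95, SE 0.155, 95% interval 0.61 to 1.30, adjusted p = 0.00345 by limma), a larger change than that of 98.6% of tested genes. Without control replicate 3 the log2 fold change was 0.75 and still passed (adjusted p = 0.00123). With no filter on low genes it did not pass (adjusted p = 0.0689), and it passed in the other 17 alternatives. The ratio of BAMBI to TGFBR1 was 1.78, 2.08 and 1.73 in the overexpression-labelled libraries and 0.988, 0.994 and 0.670 in the control-labelled ones.

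SKIL (gene ID 6498, chromosome 3, 170357715 to 170396849) encodes SnoN, a repressor that binds SMAD2, SMAD3 and SMAD4 and is itself induced by TGF-beta. It had 30.02, 29.07 and 27.09 FPKM in the overexpression-labelled libraries, against 34.87, 32.88 and 26.69 FPKM in the control-labelled ones. Control replicate 3 lay below the whole of the first group, and the other control libraries above it. The difference did not pass (a log2 fold change of -0.12, 95% interval -0.35 to 0.10, adjusted p = 0.385 by limma). Without control replicate 3 it did (log2 fold change -0.24, adjusted p = 0.0331).

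Among all tested genes, the 3 whose centred log2 values differed least from those of BAMBI over the 6 libraries were PABPC4L, PGF and MGAT4A, with root mean square differences of 0.098, 0.116 and 0.127 on the log2 scale. PGF encodes placental growth factor. It had 13.12, 14.92 and 14.51 FPKM in the overexpression-labelled libraries, against 10.18, 9.39 and 6.43 FPKM in the control-labelled ones, and is one of the neighbours of TGFB3 plotted among the genes within 5 Mb. All 3 rose (log2 fold changes 0.91, 0.73 and 0.76), and each was lowest in control replicate 3, as BAMBI was. Both traits follow from picking genes by their likeness to BAMBI in these same libraries. MGAT4A did not pass without overexpression replicate 1 (adjusted p = 0.0734), replicate 2 (0.103) or replicate 3 (0.0627), nor without control replicate 2 (0.0736) or control replicate 3 (0.0554).

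Genes near several members were lower in the overexpression-labelled libraries. Among tested genes whose start lay within 5 Mb of that of TGFBR2, on the short arm of chromosome 3, 19 of 23 were lower and 10 fell past the threshold, with a median log2 fold change of -0.25, against -0.20 for TGFBR2 itself. Around TGFB3, 52 of 61 genes were lower (22 past the threshold), with a median of -0.22 against 0.73 for TGFB3. The 1 neighbour of TGFB3 that rose past the threshold was PGF (log2 fold change 0.73, adjusted p = 0.0103 by limma). Around TGFB2, 18 of 24 were lower (4 past the threshold) with a median of -0.10. Around BAMBI, 16 of 25 were lower (5 past the threshold) with a median of -0.14. Over all genes tested, 13.1% fell past the threshold, and the median was -0.01. The genes around TGFB1 had a median of 0.06, and 105 of 176 were higher. TGFB2, TGFB3 and BAMBI thus lay well away from the median of their neighbours, and TGFBR2 close to it. With the neighbours' median removed in each library, the log2 fold changes were -0.44 for TGFB2 (adjusted p = 0.00363 by limma), 0.94 for TGFB3 (0.0311), 1.07 for BAMBI (0.00140) and 0.07 for TGFBR2 (0.524). The part of these shifts in the values of the members was not otherwise tested.

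**Figure D4:**
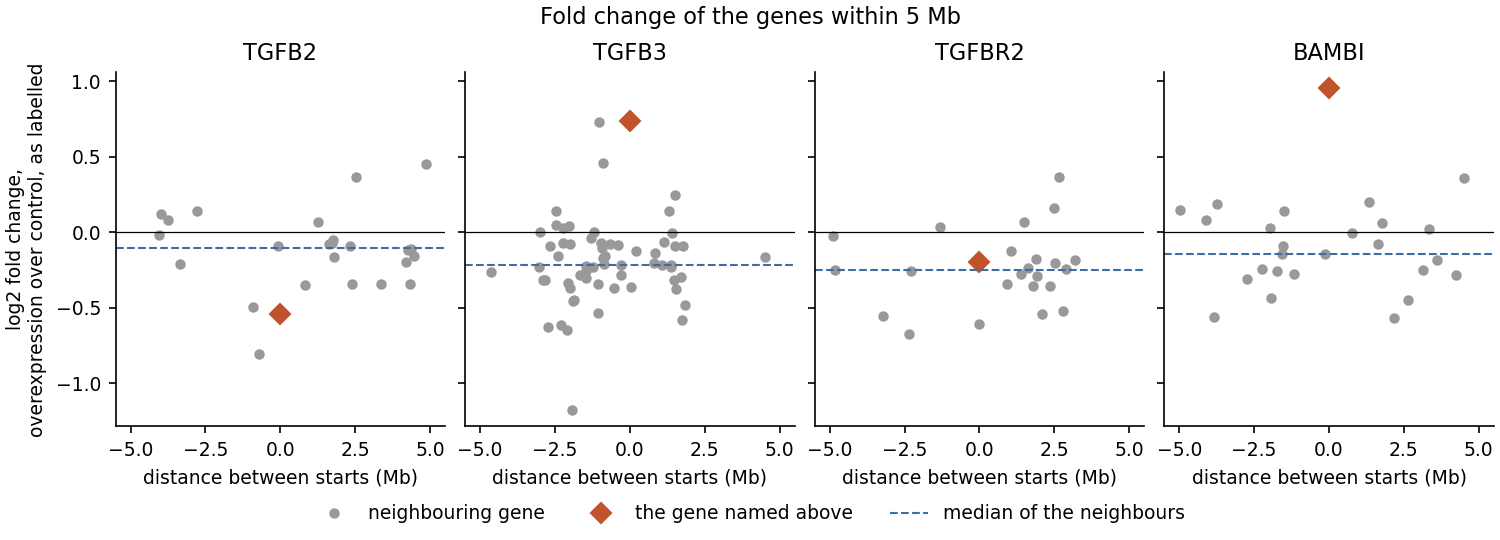
Log2 fold change, labelled overexpression over labelled control, of TGFB2, TGFB3, TGFBR2 and BAMBI (diamonds) and of the tested genes within 5 Mb (grey points), against the distance between gene starts in Mb; the dashed line is the median of the neighbours. TGFBR2 lies near its neighbours' median of -0.25, while TGFB3 and BAMBI lie above all of theirs, TGFB3 only just above its neighbour PGF (both 0.73 when rounded).

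Beyond the 10 genes, 7 lists of the wider pathway held 117 genes, of which 94 were tested. Of the 94 genes, 13 rose and 24 fell (39.4%, against 24.4% of all genes), with a median log2 fold change of -0.06. The lists were chosen with earlier results of these data known, so shares above those of all genes, here and below, are description only. The counts moved to 9 and 11 without control replicate 2, to 10 and 13 without overexpression replicate 3 and to 21 and 26 without control replicate 3.

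Of 7 other ligand genes tested, 2 fell and 0 rose, with 1 higher and 2 lower at an unadjusted p under 0.05 by limma. Without any 1 of overexpression replicates 1, 2 or 3 or control replicate 2, 1 fell, and without control replicate 1, 1 rose. GDF15, a stress-induced member of the superfamily, had 186.38, 202.2 and 209.28 FPKM in the overexpression-labelled libraries, against 237.96, 240.35 and 277.61 FPKM in the control-labelled ones, and fell 1.26-fold (adjusted p = 0.0130 by limma). GDF11, a relative of myostatin, fell 1.24-fold (adjusted p = 0.0268 by limma) and was lost without overexpression replicate 1 (0.0507), 2 (0.0661) or 3 (0.0964) and without control replicate 2 (0.126).

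Of 18 genes of latency and activation tested, 8 fell and 1 rose (44.4% downward, against 13.1% of all genes), with a median log2 fold change of -0.17. The counts were 4 and 0 without control replicate 2, and 8 and 4 without control replicate 3. Without overexpression replicate 2 or 3 or control replicate 1 they were 6 and 0. The difference between the directions was not tested. The 4 genes named next were taken as the largest changes that passed, so they leave out the 1 that rose and others that fell. FBN1, fibrillin 1, to whose microfibrils latent TGF-beta complexes attach, had 11.88, 12.06 and 11.74 FPKM in the overexpression-labelled libraries, against 19.7, 20 and 19.87 FPKM in the control-labelled ones (log2 fold change -0.73, adjusted p = 2.87e-04 by limma). MMP9, a gelatinase that can release TGF-beta, fell 1.65-fold (adjusted p = 0.00988 by limma). MMP2, the other gelatinase, was low and fell to 1.08, 0.81 and 1.06 FPKM in the overexpression-labelled libraries, against 1.81, 1.75 and 1.8 FPKM in the control-labelled ones (log2 fold change -0.81, adjusted p = 0.0197 by limma). Its mean in the overexpression-labelled libraries lay under 1 FPKM, so MMP2 entered the test through its level in the control-labelled ones. It was lost without overexpression replicate 2 (0.0567), control replicate 1 (0.0603) or control replicate 2 (0.0701). LTBP1, which encodes a latent TGF-beta binding protein, fell to 1.31 ± 0.040 FPKM, against 2.01 ± 0.156 FPKM in the control-labelled libraries (SD, n = 3 each; adjusted p = 0.0394 by limma). LTBP1 was lost without overexpression replicate 1 (0.0714), 2 (0.0824) or 3 (0.104), and without control replicate 1 (0.124) or 2 (0.103).

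Of 8 antagonists tested, 1 rose and 3 fell, against 11.3% and 13.1% of all genes, with a median of -0.13. The number that fell was 1 without overexpression replicate 3, control replicate 1 or control replicate 2, and 4 without control replicate 3. NOG, noggin, which binds bone morphogenetic proteins (BMPs), rose 1.54-fold (adjusted p = 0.0115 by limma), with 6.89, 7.78 and 7.22 FPKM in the overexpression-labelled libraries and 5.26, 3.85 and 5.13 FPKM in the control-labelled ones. CD109, a membrane co-receptor that dampens TGF-beta signalling, fell 1.41-fold to 25.4 ± 1.29 FPKM, against 35.9 ± 2.62 FPKM in the control-labelled libraries (SD, n = 3 each; adjusted p = 0.00298 by limma). FSTL1, a follistatin-like protein, fell 1.62-fold (adjusted p = 0.0315 by limma) and was lost without overexpression replicate 2 (0.0977) or 3 (0.0990) and without control replicate 1 (0.0584) or 2 (0.129). CHRDL1, a BMP antagonist, fell 1.16-fold (adjusted p = 0.0464 by limma) and was lost without overexpression replicate 1 (0.134) or 3 (0.145) and without control replicate 1 (0.132) or 2 (0.164), and its log2 fold change was -0.06 (0.509) with the neighbour shift removed.

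Of 10 other receptor genes tested, 1 rose and 1 fell (20% in all, against 24.4% of all genes). ENG, endoglin, an accessory receptor best known in endothelium, had 3.35, 3.46 and 2.65 FPKM in the overexpression-labelled libraries, against 1.45, 1.46 and 1.23 FPKM in the control-labelled ones, a 2.19-fold rise (adjusted p = 0.00296 by limma). Endothelial markers were near 0, with a summed level over 6 genes of 0.20 to 0.41 FPKM in the overexpression-labelled libraries and 0.24 to 0.42 in the control-labelled ones, and KDR at 0 in all. ACVR1B, the type I receptor of activin, fell to 24.0 ± 0.396 FPKM, against 29.0 ± 2.70 FPKM in the control-labelled libraries (SD, n = 3 each; adjusted p = 0.0396 by limma), and was lost in all fits that left out a library except that without control replicate 1 (adjusted p of 0.0647 to 0.142 in the other 5: without overexpression replicates 1, 2 or 3 and control replicates 2 or 3).

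Among 10 tested SMADs and partners, 2 fell and 0 rose (20%, against 24.4% of all genes), with 4 lower and 1 higher at an unadjusted p under 0.05 by limma. The number that fell was 0 without overexpression replicate 3, 4 without control replicate 3 and 1 without each of the other libraries. SMAD2, which acts beside SMAD3, fell to 27.2 ± 0.575 FPKM, against 34.3 ± 2.57 FPKM in the control-labelled libraries (SD, n = 3 each; a log2 fold change of -0.33, adjusted p = 0.0124 by limma). It did not pass without overexpression replicate 3 (0.0503) or once the shift of its neighbours on chromosome 18 was removed (log2 fold change -0.09, adjusted p = 0.380). SMAD5, a transducer of BMP signals, fell 1.19-fold (adjusted p = 0.0411 by limma) and was lost without overexpression replicate 1 (0.119), 2 (0.107) or 3 (0.0692) and without control replicate 1 (0.104) or 2 (0.143). SMAD1 and SMAD4 did not pass.

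Of 14 tested inhibitors of SMAD signalling, 3 rose and 1 fell (28.6%, against 24.4% of all genes), with a median of 0.02. The number that rose was 1 without overexpression replicate 3 or control replicate 2, and 5 without control replicate 3. Without control replicate 2, 0 fell. TOB1, an antiproliferative protein that binds SMADs, rose 1.37-fold (adjusted p = 0.00438 by limma). STRAP, a receptor-binding inhibitor, rose 1.19-fold (adjusted p = 0.0127 by limma) and was lost without overexpression replicate 3 (0.0595) or control replicate 2 (0.0740). The corepressor gene TGIF1 fell to 158 FPKM, against 191 FPKM in the control-labelled libraries (adjusted p = 0.0101 by limma), was lost without control replicate 2 (0.0580), and lay at a log2 fold change of -0.03 (adjusted p = 0.700) once the shift of its neighbours on chromosome 18 was removed. Its relative TGIF2 rose 1.46-fold (adjusted p = 0.0425 by limma) and was lost without overexpression replicate 1 (0.0749), 2 (0.138) or 3 (0.0639) and without control replicate 1 (0.0999) or replicate 2, where the adjusted p was above these. SMAD7, the main inhibitory SMAD induced by TGF-beta, had 39.34, 47.7 and 45.27 FPKM in the overexpression-labelled libraries, against 42.89, 44.19 and 51.49 FPKM in the control-labelled ones, with overlapping groups (log2 fold change -0.07, adjusted p = 0.629 by limma). PMEPA1, another inhibitor induced by TGF-beta, overlapped as well (log2 fold change 0.08, adjusted p = 0.585 by limma).

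A further list was meant to hold transcripts raised by TGF-beta in epithelial cells, but it also held ID1, ID2 and ID3, which BMP signals induce. Of its 30 tested genes, 8 rose, ID1 and ID3 among them, and 8 fell. This was 26.7% in each direction, against 11.3% and 13.1% of all genes, with a median log2 fold change of -0.06. At an unadjusted p under 0.05, 9 were higher and 13 lower. The counts that rose and fell were 6 and 4 without control replicate 2, 7 and 5 without overexpression replicate 3, and 11 and 8 without control replicate 3. TAGLN, an actin-binding protein of contractile cells, had 13.71, 13.19 and 11.38 FPKM in the overexpression-labelled libraries, against 35.61, 37.26 and 36.43 FPKM in the control-labelled ones, and fell 2.85-fold (adjusted p = 1.61e-05 by limma). LOX, an enzyme that crosslinks collagen, rose 1.60-fold to 84.3 ± 7.13 FPKM, against 52.7 ± 4.92 FPKM in the control-labelled libraries (SD, n = 3 each; adjusted p = 0.00110 by limma). IGFBP3, which binds insulin-like growth factors, rose 1.57-fold (adjusted p = 3.82e-04 by limma). CCN2, connective tissue growth factor, did not pass (a log2 fold change of 0.09, adjusted p = 0.344 by limma). MMP2 was a member of this list as well as of that of latency.

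A few further genes of the list meant for transcripts raised by TGF-beta were picked out after their values were seen. ID1 and ID3, inhibitors of differentiation that BMP signals induce, rose. The change was 1.31-fold for ID1 (adjusted p = 0.00761 by limma) and 1.41-fold for ID3 (adjusted p = 9.34e-04 by limma). ID2, on the same list, did not pass (log2 fold change 0.14, adjusted p = 0.194 by limma). ID3 had 522.35, 566.27 and 568.45 FPKM in the overexpression-labelled libraries, against 399.59, 395.71 and 381.82 FPKM in the control-labelled ones. The transcription factor genes SNAI1 and SNAI2, both tied to loss of epithelial features, went opposite ways, with log2 fold changes of 0.52 (adjusted p = 0.00784 by limma) and -0.39 (adjusted p = 0.0142 by limma). ZEB1, another such gene on the list, fell (log2 fold change -0.45, adjusted p = 0.0286 by limma). With no filter ID1 (0.0702) and SNAI1 (0.0846) did not pass. SNAI2 no longer passed with no filter (0.103), with the neighbour shift removed (0.0816) or after removal of the trend on GC content, length and expression (0.0878). Of 8 fibroblast markers, 2 had a mean of at least 1 FPKM and POSTN was at 0 in every library, and the summed level of the 8 was 17.9 to 18.5 FPKM in the overexpression-labelled libraries and 15.2 to 16.9 in the control-labelled ones. The summed level of 6 leukocyte markers, nearly all CD68, was 195 to 218 FPKM in the overexpression-labelled libraries and 167 to 184 in the control-labelled ones. The part of other cell types in these results was not tested, and with bulk RNA fewer cells of a type cannot be told apart from less RNA per cell.

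**Figure D5:**
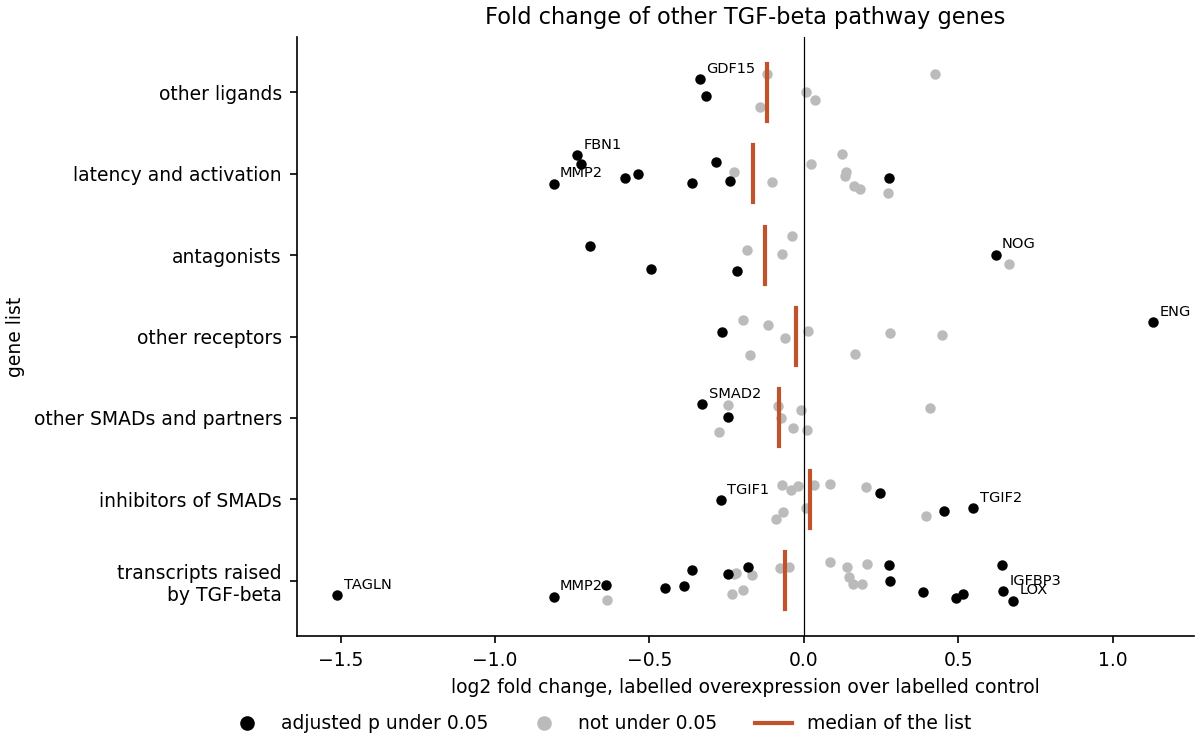
Log2 fold change, labelled overexpression over labelled control, of the tested genes in 7 further lists of the pathway; each point is a gene (black where the limma adjusted p was under 0.05) and orange bars are list medians. The median of latency and activation genes lies at -0.17. The list meant for transcripts raised by TGF-beta, which also holds ID1, ID2 and ID3, spreads from -1.51 (TAGLN) to 0.68 (LOX).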

How the data were processed

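RNA was measured in 6 libraries of HK-2 cells. The authors deposited FPKM values, 1 column per library with 2 decimals. Per the study's methods, reads were trimmed, aligned to GRCh38 with HISAT2 and counted per gene when uniquely mapped. Batch correction with ComBat_seq is named there, without saying whether these values had it. HISAT2 and DESeq2 are listed in the submitters' processing notes. Which annotation and counter were used is not given in the sources used here. FPKM leaves differences in library composition and GC content uncorrected. The count test of the study's methods could not be used on FPKM, so limma 3.58.1 in R 4.3.3 (lmFit, eBayes with trend) was run on log2(FPKM + 0.1) over 12461 genes with a mean of at least 1 FPKM, which understates changes of low genes. The test was tested on simulated data. Depth was sought in the steps of low values of short genes with 1 exon. Whole multiples (within 0.15) made up 53.2% to 62.0% of them at the best depth, and any 1 depth gives 30% by chance, so depth could not be recovered from the values. The study lists mapped reads for libraries in both media, which the labels do not tie to these 6, and no counting interval is given.

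The sample titles gave groups and replicate numbers. Gene identifiers, coordinates and upstream sequences came from RefSeq, GRCh38.p14, which matched 20164 of 20442 symbols (98.6%). GC content and length were those of the GENCODE canonical transcript. The members and lists were chosen with earlier results of these data known. Named genes were the 10 members, HNRNPF, up to 4 genes of each list with the largest change at an adjusted p under 0.05, CCN2, TAGLN, SMAD7 and PMEPA1, and the 3 genes most like the member that changed most. Some genes are not reported here. The fit was repeated with other pseudocounts (1, 0.01), without the filter or with one at 5 FPKM, with TPM, quantile or median-of-ratios scaling, with robust estimation, without the trend, with the replicate number as a block, with each library left out, and with the median shift of neighbours within 5 Mb removed. Removal of a spline trend on GC content, length and expression was added after seeing the data. Figures were drawn with matplotlib 3.10.9.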

Additional observations from a re-analysis of the deposited data

How the results depend on the processing

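TGFB2 and HNRNPF kept their direction and stayed past the threshold in all 18 alternatives, and BAMBI in 17, with the exception of no filter (log2 fold change 0.95, limma adjusted p = 0.0689), where 20442 genes were tested. TGFB1 kept its direction and no longer passed with no filter and limma without trend (0.28 each), TPM scaling (0.31), the neighbour shift removed (0.20) and the GC, length and expression trend removed (0.15). Leaving out a library gave 0.20 to 0.35. TGFB3 newly passed with a pseudocount of 1 (log2 fold change 0.44), TPM scaling (0.77), limma without trend, robust estimation and the replicate block (0.73 each) and the neighbour shift removed (0.94), and leaving out a library gave 0.61 to 0.91. TGFB3 and TGFBR3 could not be fitted with the filter at 5 FPKM, which leaves them out. INHBA newly passed with quantile normalization (0.21), TPM scaling (0.20), the neighbour shift removed (0.20) and the GC trend removed (0.27). TGFBR2 newly passed with the GC trend removed (-0.19) and turned to 0.066 with the neighbour shift removed. SKIL lay at -0.24 to -0.046 with a library left out. Directions that turned, never past the threshold, were those of TGFBR3 (0.10 with the neighbour shift removed, -0.22 to 0.089 with a library left out), SMAD3 (0.0089 with TPM scaling, 0.027 with the neighbour shift removed, -0.095 to 0.022 with a library left out), SMAD7 (0.20 with the neighbour shift removed, -0.125 to 0.014 with a library left out, above 0 without overexpression replicate 1 or control replicate 3) and PMEPA1 (-0.0045 with the GC trend removed). The cause was not tested.

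With no filter 0 members rose (limma, 20442 genes tested), and 4 were higher at an unadjusted p under 0.05. With the GC trend removed 2 members fell. Leaving out a library gave 1 to 3 members that rose and 1 to 2 that fell. Over all genes, 1410 rose and 1629 fell, against 579 and 714 with no filter, and 536 to 2079 and 711 to 2175 with a library left out, the lowest without control replicate 2 and the highest without control replicate 3. Of the pathway lists together, 13 rose and 24 fell, against 7 and 13 with no filter, and 9 to 21 and 11 to 26 with a library left out. Under the replicate block, 3 members rose and 1 fell, and TGFB1 had an adjusted p of 0.0212. Libraries that share a number had deviations correlated at 0.091, -0.086 and 0.0057, which gives no pairing. The highest correlation across groups was 0.149, between overexpression replicate 2 and control replicate 3. Overexpression replicate 1 was closest to control replicate 2 (0.096). The block took LTBP1, CHRDL1 and SMAD5 to adjusted p of 0.0649, 0.0521 and 0.0690. For the other named genes, ID2 and ZEB1 left out, 480 values gave the same call and direction, 83 no longer passed, 1 newly passed and 4 turned. With no filter the adjusted p was 0.0896 for GDF15, 0.0729 for MMP9, 0.0809 for NOG and 0.108 for PGF. What depth limits was not measured.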
